A study of Arabidopsis thaliana with 12 samples.

Results

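The response of wild-type (Col-0) Arabidopsis thaliana roots to the auxin indole-3-acetic acid (IAA) was taken as the comparison of 3 libraries from IAA-treated roots with 3 libraries from roots on MS medium. It covers 18743 of the 23853 genes of the table, those with at least 1 FPKM (fragments per kilobase of exon, scaled to the size of the library) in at least 3 of the 12 libraries. The series asked whether the SUMO E3 ligase SIZ1 takes part in auxin signaling, and holds Col-0 and *siz1-2* mutant roots on MS and with IAA, 3 libraries in each of 4 groups. Per the labels, seedlings had grown for 7 days on half-strength MS after a cold treatment of the seeds, while the methods of the study give a slightly older age, and the treated ones received 0.5 µM IAA for 3 h. All 6 Col-0 libraries are of the same accession and tissue, and no allele or other agent is named for them. The titles give a time for the IAA libraries only, and the methods of the study name no mock treatment. Effects of IAA can thus not be told apart from those of handling or hour of harvest, in touch and clock genes among others. The treatment protocol text of the labels names IAA for every library, the MS ones included, so the groups rest on the treatment tag and the title. Whole roots were used, so fewer cells of a type and less RNA per cell cannot be told apart in any result. No label or method says that the libraries came from separate cultures, and p-values then measure only the spread between these libraries, which may be technical.

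Auxin is perceived by the TIR1/AFB F-box proteins, which bind Aux/IAA repressors in its presence and send them to degradation. The auxin response factors (ARFs) that the Aux/IAA proteins held are then free to act on promoters with TGTC-type elements. In roots, the module of IAA14 with ARF7 and ARF19 turns on LBD genes and starts lateral roots, while the hormone also slows elongation of the main root and is itself inactivated by enzymes that it induces.

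The summed FPKM of the 12 libraries ranged from 581254 to 636309, and their relative depth, read from the smallest steps of low values, from 0.896 to 1.03 of the first MS library. FPKM carry no counts, so the depth itself is unknown and no counting interval is given. Among the Col-0 libraries, IAA replicate 1 (IAA 1, the other libraries being named likewise) stood apart. Its 28 green-tissue marker genes had a median of 43.6 FPKM, against 10.6 to 12.1 FPKM in the 3 MS libraries, 13.7 in IAA 2 and 8.28 in IAA 3. They summed to 1677 FPKM there, against 381 to 411 in the MS libraries and 484 and 311 in IAA 2 and IAA 3. Of the 28, 0 were at 0 in MS 1, IAA 1 and IAA 2, 3 in MS 2 and in MS 3, and 1 in IAA 3. The 3 seed and pollen control genes summed to at most 0.185 FPKM in every Col-0 library. The part of green-tissue RNA in the results was not tested, and values without IAA 1 are given where they bear on one.

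The sequences upstream of 5 genes of auxin turnover and lateral root initiation, all among the 12 largest increases, are printed because the auxin response is read through such elements. They are the 250 bases before the annotated start, 5′ to 3′ in the direction of the gene, from the RefSeq genome TAIR10.1, with the canonical auxin response hexamer TGTCTC in capitals for the 3 GH3 genes. For MES17 and LBD29, which lack it there, every TGTCNN on either strand is in capitals. The windows are chr2:9866563-9866812 (minus strand) for GH3.3, chr4:17579368-17579617 (plus) for GH3.2 (BRU6), chr4:13653329-13653578 (plus) for GH3.5 (WES1), chr3:3402777-3403026 (minus) for MES17 and chr3:21549573-21549822 (minus) for LBD29.
GH3.3: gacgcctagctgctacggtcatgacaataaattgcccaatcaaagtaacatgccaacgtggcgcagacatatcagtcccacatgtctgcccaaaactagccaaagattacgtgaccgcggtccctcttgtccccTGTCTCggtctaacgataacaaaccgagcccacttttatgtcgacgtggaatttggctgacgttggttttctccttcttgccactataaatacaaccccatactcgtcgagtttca
GH3.2: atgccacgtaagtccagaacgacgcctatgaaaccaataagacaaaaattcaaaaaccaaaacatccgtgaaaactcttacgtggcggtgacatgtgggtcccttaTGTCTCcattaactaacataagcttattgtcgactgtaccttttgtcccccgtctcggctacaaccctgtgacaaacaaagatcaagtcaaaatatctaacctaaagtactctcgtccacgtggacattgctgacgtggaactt
GH3.5: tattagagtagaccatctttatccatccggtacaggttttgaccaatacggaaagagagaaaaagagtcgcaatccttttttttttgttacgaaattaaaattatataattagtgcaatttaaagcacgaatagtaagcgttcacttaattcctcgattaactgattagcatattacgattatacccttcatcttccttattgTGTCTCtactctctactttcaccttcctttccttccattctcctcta
MES17: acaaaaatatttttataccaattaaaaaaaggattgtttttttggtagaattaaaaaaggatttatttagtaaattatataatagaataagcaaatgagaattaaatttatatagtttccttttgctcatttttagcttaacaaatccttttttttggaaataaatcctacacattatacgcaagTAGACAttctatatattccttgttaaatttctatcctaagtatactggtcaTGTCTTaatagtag
LBD29: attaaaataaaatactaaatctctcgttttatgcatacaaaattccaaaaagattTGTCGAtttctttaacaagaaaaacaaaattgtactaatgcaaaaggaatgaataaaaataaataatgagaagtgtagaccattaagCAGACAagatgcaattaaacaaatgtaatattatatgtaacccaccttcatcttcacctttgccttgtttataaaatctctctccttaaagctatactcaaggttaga
The first base of TGTCTC lay 116 bases before the start of GH3.3, 144 before that of GH3.2 and 47 before that of GH3.5.

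In Col-0, 1703 genes rose and 1538 fell with IAA (limma on log2(FPKM + 0.5), Benjamini-Hochberg adjusted p under 0.05 over all 18743 genes), which is 17.3% of the genes tested, 9.09% higher and 8.21% lower. Of these, 625 rose and 586 fell by a log2 fold change of at least 1 and are called DEGs here, 6.46% of the genes tested, 3.33% higher and 3.13% lower. Members of gene lists are counted at the adjusted p alone and read against the 9.09% and 8.21%. Where leaving out 1 library moved such a count by over 1.5 times, the counts without it close the paragraph. Fold changes are on the log2(FPKM + 0.5) scale, which understates the change of low genes. The DEGs that rose had a median log2 fold change of 1.49, 173 of them at 2 or above, 59 at 3 or above and 25 at 4 or above. Those that fell had a median of −1.38, and 100 reached −2, 23 reached −3 and 8 reached −4. The median over all genes was −0.02. In 624 of the 625 and 583 of the 586 the 3 IAA libraries did not overlap the 3 MS libraries. Of all genes tested, 15.5% lay entirely higher and 14.2% entirely lower. The DEGs were chosen on these same libraries, so their lack of overlap is largely set by that choice and is no test. Without IAA 1, 675 genes were DEGs in the upward and 533 in the downward direction, and 1042 of the 1211 DEGs of all libraries were among them.

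The genes that rose came from lower levels than those that fell. Their median was 4.26 FPKM on MS and 16.2 FPKM with IAA, and 152 of the 625 (24.3%) had a mean below 1 FPKM on MS. The genes that fell had a median of 10.9 FPKM on MS and 3.25 FPKM with IAA, and 140 of the 586 (23.9%) had a mean below 1 FPKM with IAA. Added up, the DEGs that rose made up 1.31 to 1.43% of a library's summed FPKM on MS and 4.53 to 4.83% with IAA, and those that fell made up 3.62 to 3.85% and 1.19 to 1.26%. The median exonic length was 1390 bases in the first group and 1598.5 bases in the second, against 1766 bases over all genes tested. These are descriptions of genes chosen on the same contrast.

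**Figure D1:**
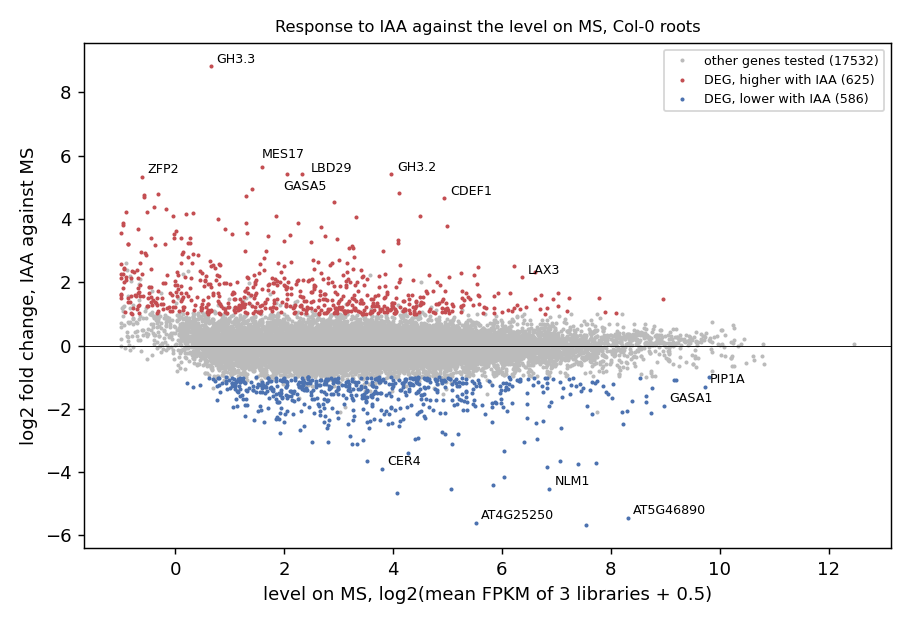
Each point is 1 of the 18743 genes, with its level on MS (log2 of the mean FPKM of 3 libraries + 0.5) on the horizontal axis and its log2 fold change (IAA against MS) on the vertical axis; the 625 DEGs that rose and the 586 that fell are coloured. GH3.3 lies at the top with a log2 fold change of 8.82, and the largest fall is −5.68.

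The GH3 enzymes, which join IAA to amino acids and so remove the free hormone, held 3 of the 12 largest increases. In GH3.3 the values were 1.21, 1.06 and 0.932 FPKM in the 3 MS libraries and 763, 639.6 and 728 FPKM in the 3 IAA libraries (log2 fold change 8.82, SE 0.14, limma adjusted p = 3.5e-13). GH3.2 had 13.5, 16.0 and 16.0 FPKM on MS and 685, 643 and 674 FPKM with IAA (log2 fold change 5.42, SE 0.17, limma adjusted p = 3e-10). GH3.3 was close to the 1 FPKM filter on MS, GH3.2 was clearly expressed, and both are among the 6 genes with the largest gain in FPKM. GH3.5 stood at 18.1, 17.5 and 14.4 FPKM on MS and 512, 451 and 485 FPKM with IAA (log2 fold change 4.82, SE 0.11, limma adjusted p = 9.2e-12). GH3.6 had 7.06 ± 1.39 FPKM on MS and 175 ± 15.4 FPKM with IAA (log2 fold change 4.55, SE 0.16, limma adjusted p = 8.6e-10). Of the GH3 genes, 5 of the 6 tested members rose and 0 fell (median log2 fold change 4.68, and 0 lower at an unadjusted limma p under 0.05). Beside them, MES17, an esterase that frees IAA from its methyl ester, had 2.49, 2.4 and 2.65 FPKM on MS and 137, 153 and 159 FPKM with IAA (log2 fold change 5.64, SE 0.12, limma adjusted p = 6.5e-12), and its annotated span overlaps that of AT3G10860, so reads of one could be counted for the other. UGT74E2, which glucosylates the related auxin indole-3-butyric acid, had 7.10 ± 1.94 FPKM on MS and 23.9 ± 4.22 FPKM with IAA (log2 fold change 1.70, SE 0.25, limma adjusted p = 0.00032). In the list of enzymes that oxidise, esterify or hydrolyse auxin forms, 2 of the 11 tested members rose and 1 fell (median log2 fold change 0.00). The names DAO1, DAO2 and UGT76E5 of this list matched no gene, so these enzymes are not counted in it. Of the IAA synthesis genes, 2 of the 14 tested members rose and 3 fell (median log2 fold change −0.08): TAA1, which makes indole-3-pyruvate, had 16.1 ± 2.26 FPKM on MS and 34.1 ± 2.4 FPKM with IAA (log2 fold change 1.07, SE 0.12, limma adjusted p = 4.2e-05), and the nitrilase genes NIT2 and NIT3, which are close copies whose reads may be shared, moved in opposite directions at 1.07 and −0.67. For the list of oxidising, esterifying and hydrolysing enzymes, 0 fell without IAA 2, IAA 3, MS 2 or MS 3, and 0 fell with a filter of 5 FPKM, with the length correction, with a pseudocount of 0.1 FPKM and with quantile normalization.

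**Figure D2:**
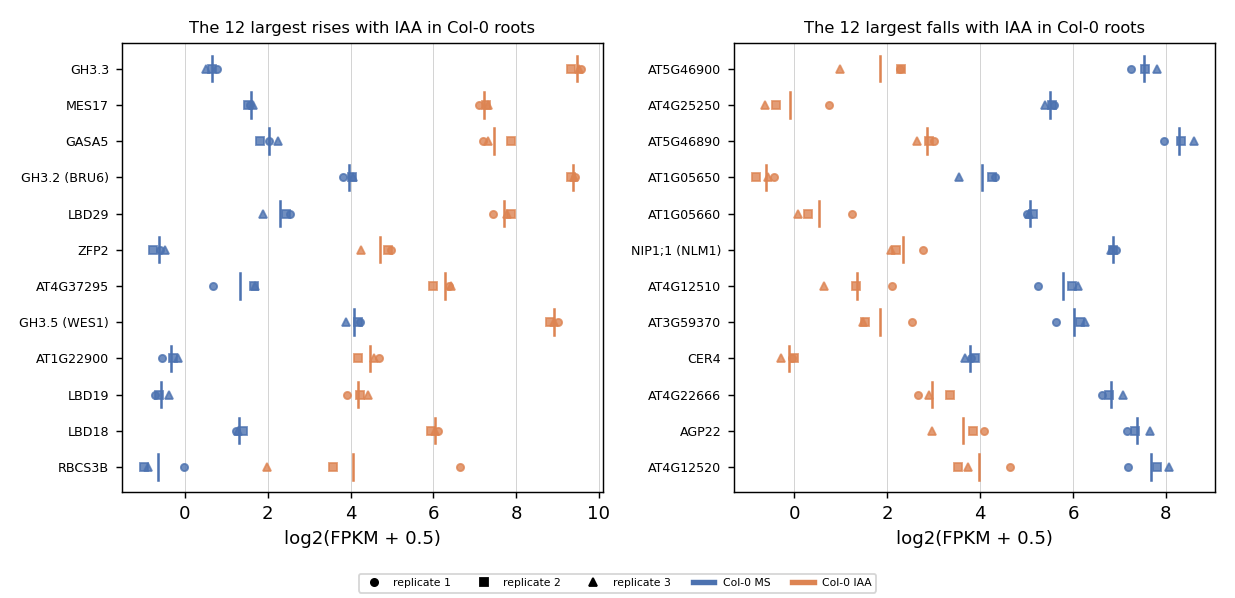
FPKM of the 12 genes with the largest increases and the 12 with the largest decreases in the 3 MS (blue) and 3 IAA (orange) libraries of Col-0, on a log2 axis of FPKM + 0.5; circles, squares and triangles are replicates 1, 2 and 3 and vertical lines are means of the log2 values. Only DEGs whose 3 IAA and 3 MS values do not overlap could be chosen, so the colours are separate by that rule. RBCS3B is the gene whose 3 IAA values spread most, from 3.45 to 99.5 FPKM.

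The repressors of the pathway rose broadly. Of the Aux/IAA genes, 18 of the 25 tested members rose and 1 fell (median log2 fold change 1.27). IAA5 had 0.117, 0.235 and 0.821 FPKM on MS and 17.7, 17.5 and 14.1 FPKM with IAA (log2 fold change 4.32, SE 0.26, limma adjusted p = 1.1e-07) and overlaps AT1G15570 in the annotation. IAA19, a repressor of growth responses, had 6.90, 9.73 and 10.5 FPKM on MS and 85.2, 72.6 and 90.4 FPKM with IAA (log2 fold change 3.14, SE 0.17, limma adjusted p = 4.1e-08). IAA13 had 20.2 ± 1.75 FPKM on MS and 86.2 ± 4.78 FPKM with IAA (log2 fold change 2.07, SE 0.12, limma adjusted p = 6.2e-08). IAA9 had 221 ± 14.2 FPKM on MS and 624 ± 64.9 FPKM with IAA (log2 fold change 1.49, SE 0.10, limma adjusted p = 4.4e-07). IAA14, the repressor whose gain-of-function mutant lacks lateral roots, had 10.9, 13.6 and 12.2 FPKM on MS and 34.5, 40.3 and 37.0 FPKM with IAA (log2 fold change 1.57, SE 0.12, limma adjusted p = 1.2e-06). Of the 18 that rose, 15 were lowest in IAA 1 among the IAA libraries and 13 were highest in IAA 2. For the Aux/IAA genes, 0 fell with a filter of 5 FPKM. IAA 1 is also the library with the high green-tissue markers given above, and their part in this order was not tested.

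**Figure D3:**
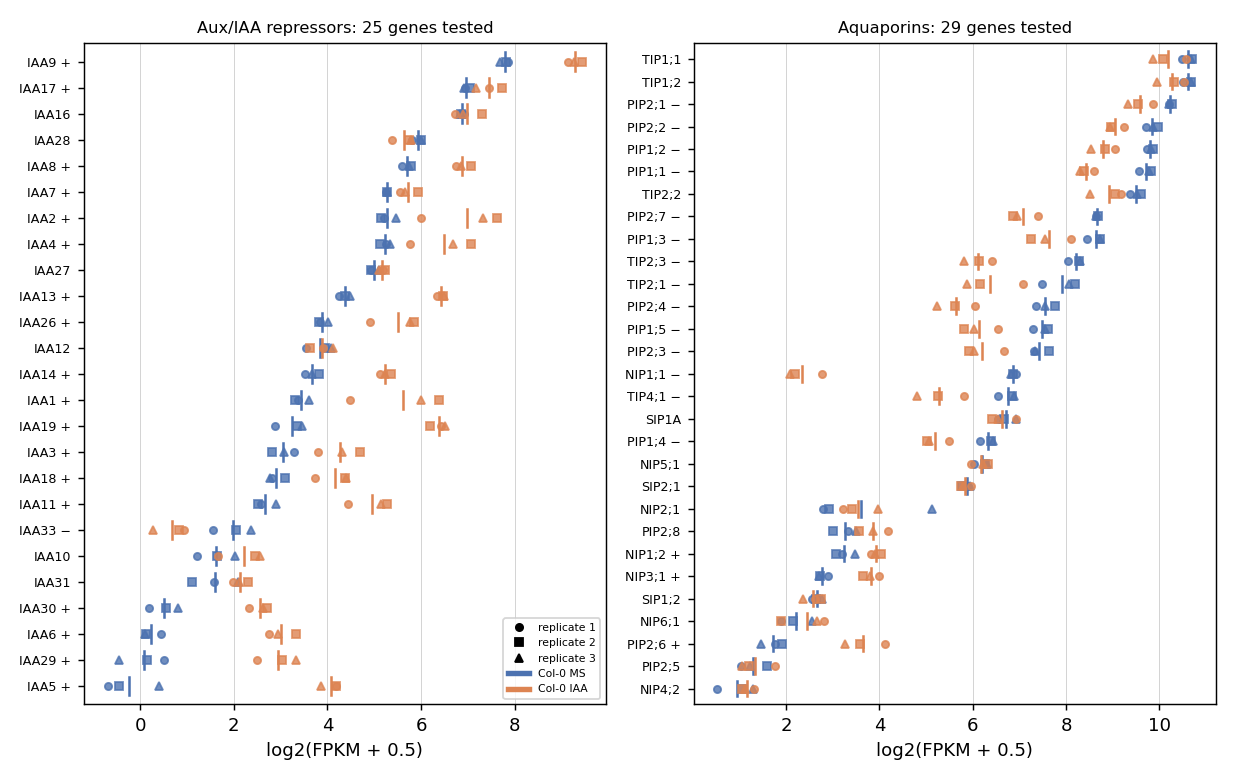
FPKM of the tested Aux/IAA genes (left) and aquaporin genes (right) in the 3 MS (blue) and 3 IAA (orange) libraries of Col-0, on a log2 axis of FPKM + 0.5; symbols are replicates 1 (circle), 2 (square) and 3 (triangle), and + or − after a name marks genes that rose or fell. Of the Aux/IAA genes 18 of 25 carry a plus and 1 a minus, and of the aquaporins 3 of 29 carry a plus and 14 a minus.

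Of the factors and receptors that act with the repressors, 26.7% of the ARFs and 16.7% of the receptors passed the test, against 17.3% of all genes. Of the ARFs, 3 of the 15 tested members rose and 1 fell (median log2 fold change 0.12). ARF16, which acts in the root cap, had 15.8, 17.2 and 15.7 FPKM on MS and 37.4, 47.4 and 56.8 FPKM with IAA (log2 fold change 1.49, SE 0.15, limma adjusted p = 1.6e-05), ARF4 had a log2 fold change of 0.71 and ARF2, a repressor, one of −0.72. ARF19 had 9.52, 8.41 and 7.33 FPKM on MS and 7.97, 21.3 and 30.3 FPKM with IAA, with IAA 1 lowest and within the MS range (log2 fold change 1.01, SE 0.35, limma adjusted p = 0.063). Without IAA 1 its log2 fold change was 1.54 (limma adjusted p = 7.6e-05). ARF7 had 15.7, 13.8 and 10.9 FPKM on MS and 7.22, 7.18 and 12.8 FPKM with IAA (log2 fold change −0.58, SE 0.22, limma adjusted p = 0.084), and both genes overlap a neighbour in the annotation. Of the receptors, 0 of the 6 tested members rose and 1 fell (median log2 fold change 0.07, and 1 higher at an unadjusted limma p under 0.05). The member that fell was AFB1 (GRH1), with 62.1, 53.1 and 55.3 FPKM on MS and 34.6, 29.1 and 31.8 FPKM with IAA (log2 fold change −0.83, SE 0.11, limma adjusted p = 0.00014). TIR1 had 34.6 ± 3.55 FPKM on MS and 44.1 ± 5.48 FPKM with IAA (log2 fold change 0.35, SE 0.12, limma adjusted p = 0.056). ABP1 had a log2 fold change of 0.13 (limma adjusted p = 0.58), and the cell-surface kinase gene TMK1 one of −0.53 (limma adjusted p = 0.017), a call lost in 5 of the 18 alternatives, among them the fits without IAA 2, MS 1 or MS 2. SIZ1 itself had 26.2, 23.7 and 21.5 FPKM on MS and 21.7, 24.7 and 28.0 FPKM with IAA (log2 fold change 0.06, SE 0.13, limma adjusted p = 0.81). For the ARFs, 2 fell without IAA 3. For the receptors, 1 rose without IAA 2.

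Carriers that move auxin between cells rose in part. Of the PIN exporters and AUX/LAX importers, 4 of the 10 tested members rose and 1 fell (median log2 fold change 0.46). LAX3, the importer that helps cells over a lateral root primordium to separate, had 80.6, 84.4 and 81.3 FPKM on MS and 389, 343 and 372 FPKM with IAA (log2 fold change 2.16, SE 0.11, limma adjusted p = 2.2e-08). PIN3 had 22.4 ± 0.821 FPKM on MS and 57.9 ± 7.03 FPKM with IAA (log2 fold change 1.34, SE 0.11, limma adjusted p = 2.7e-06), AUX1 a log2 fold change of 1.17 and PIN7 one of 1.15. Of the kinases that control PIN proteins, 4 of the 10 tested members rose and 1 fell (median log2 fold change 0.33). PID, which directs PIN proteins within the cell, had 2.38, 2.56 and 3.03 FPKM on MS and 26.1, 24.0 and 23.4 FPKM with IAA (log2 fold change 2.99, SE 0.13, limma adjusted p = 1e-08). Of the ABCB, PILS and WAT1 transporters, 2 of the 13 tested members rose and 1 fell (median log2 fold change −0.09), with PILS3 (AT1G76520) at 1.36, WAT1 at 0.63 and PILS5 (AT2G17500) at −0.85. Of the SAUR genes, small auxin-induced growth regulators, 15 of the 43 tested members rose and 4 fell (median log2 fold change 0.48). SAUR34 (AT4G22620) had 0.503, 0.366 and 0.541 FPKM on MS and 18.9, 15.3 and 13.8 FPKM with IAA (log2 fold change 4.08, SE 0.21, limma adjusted p = 2.9e-08), SAUR76 (AT5G20820) a log2 fold change of 3.28, SAUR24 of 3.22 and SAUR66 (AT1G29500) of 2.96. SAUR genes stand in arrays of near-identical copies, so the split of reads between them is uncertain. For the ABCB, PILS and WAT1 genes, 2 fell without IAA 3 or MS 3. For the kinases, 0 fell without MS 1, and 0 fell with a filter of 5 FPKM and in the fit of the 6 Col-0 libraries alone.

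Genes of lateral root initiation were among the largest increases. Of the LBD genes of lateral roots, 7 of the 12 tested members rose and 0 fell (median log2 fold change 0.90, and 1 lower at an unadjusted limma p under 0.05). LBD29 had 5.32, 4.96 and 3.2 FPKM in the 3 MS libraries and 174, 236 and 219 FPKM in the 3 IAA libraries (log2 fold change 5.41, SE 0.20, limma adjusted p = 1.5e-09). LBD18 had 1.83, 2.15 and 1.94 FPKM on MS and 68.3, 60.7 and 65.8 FPKM with IAA (log2 fold change 4.73, SE 0.16, limma adjusted p = 8.6e-10). LBD19, its neighbour on the chromosome, had 0.101, 0.152 and 0.272 FPKM on MS and 14.6, 18.1 and 21.0 FPKM with IAA (log2 fold change 4.76, SE 0.20, limma adjusted p = 5.7e-09). LBD29 and LBD18 were expressed at a few FPKM before treatment, LBD19 was nearly absent, and in each the treated libraries lay far above all MS libraries. LBD33 had 1.24 ± 0.331 FPKM on MS and 9.66 ± 0.466 FPKM with IAA (log2 fold change 2.57, SE 0.22, limma adjusted p = 3.7e-06). LBD17 had 0.9 ± 0.303 FPKM on MS and 6.25 ± 0.859 FPKM with IAA (log2 fold change 2.28, SE 0.23, limma adjusted p = 1.2e-05). LBD16, which acts with LBD18 and LBD29 in founder cells, had the smallest change of the LBD genes named here, with 6.67, 8.17 and 10.4 FPKM on MS and 13.9, 26.6 and 26.0 FPKM with IAA (log2 fold change 1.31, SE 0.25, limma adjusted p = 0.0028). Of the genes of lateral root initiation, 12 of the 23 tested members rose and 0 fell (median log2 fold change 0.71, and 2 lower at an unadjusted limma p under 0.05). MAKR4, which links founder cells to primordium formation, had 7.30, 8.42 and 6.32 FPKM on MS and 53.3, 108 and 89.5 FPKM with IAA (log2 fold change 3.37, SE 0.22, limma adjusted p = 2.4e-07). GATA23, a founder cell factor, had 2.25 ± 0.353 FPKM on MS and 10.6 ± 1.89 FPKM with IAA (log2 fold change 2.01, SE 0.18, limma adjusted p = 5.8e-06), and PUCHI and SKP2B had log2 fold changes of 1.88 and 1.01. For the LBD genes, 2 fell without IAA 1. For the initiation genes, 1 fell without IAA 3.

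Genes for tissue opening and secreted signals moved in both directions. IDA, the peptide that starts cell separation over the primordium, had 0, 0.212 and 0 FPKM on MS and 1.95, 2.42 and 1.65 FPKM with IAA (log2 fold change 2.14, SE 0.29, limma adjusted p = 0.00017). The polygalacturonase gene ADPG2 had 0.355 ± 0.141 FPKM on MS and 2.89 ± 0.758 FPKM with IAA (log2 fold change 1.98, SE 0.29, limma adjusted p = 0.00035). Of the genes of cell separation in emergence, 4 of the 11 tested members rose and 2 fell (median log2 fold change 0.14). EXPA14, an expansin gene with a role in emergence, fell, with 32.7, 30.0 and 28.6 FPKM on MS and 18.9, 17.0 and 18.7 FPKM with IAA (log2 fold change −0.73, SE 0.15, limma adjusted p = 0.0047). Of the secreted peptides, 9 of the 37 tested members rose and 3 fell (median log2 fold change 0.27). CLE44, whose peptide keeps cambium cells from becoming xylem, had 0.873, 0.594 and 0.772 FPKM on MS and 24.9, 19.3 and 22.7 FPKM with IAA (log2 fold change 4.19, SE 0.20, limma adjusted p = 1.6e-08) and overlaps AT4G13190 in the annotation. CLE16 had a log2 fold change of 1.88 and PSK1, a phytosulfokine precursor, one of 1.42. Of the regulators of the root meristem, 2 of the 18 tested members rose and 2 fell (median log2 fold change −0.02), and of the vascular regulators downstream of MP, 0 of the 13 tested members rose and 0 fell (median log2 fold change 0.10, and 0 higher and 1 lower at an unadjusted limma p under 0.05). Of the HD-ZIP class II factors, 3 of the 9 tested members rose and 0 fell (median log2 fold change 0.35, and 0 lower at an unadjusted limma p under 0.05), and HAT2, an early auxin-induced member, had 28.3 ± 2.02 FPKM on MS and 50.2 ± 4.99 FPKM with IAA (log2 fold change 0.81, SE 0.13, limma adjusted p = 0.00055). For the meristem regulators, 4 rose without IAA 1, 1 rose and 1 fell without IAA 2, 1 fell without IAA 3 or MS 3, 1 rose and 0 fell without MS 1 and 1 rose without MS 2. For the vascular regulators, 1 rose without IAA 1 and 1 fell without IAA 3. For the HD-ZIP II genes, 5 rose without IAA 1.

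Several of the largest increases lay outside the auxin lists. ZFP2, a zinc finger protein gene, had 0.163, 0.0817 and 0.219 FPKM on MS and 31.1, 29.6 and 18.7 FPKM with IAA (log2 fold change 5.34, SE 0.20, limma adjusted p = 1.8e-09). GASA5, a cysteine-rich peptide gene of the gibberellin-regulated family, had 3.61, 3.02 and 4.26 FPKM on MS and 145, 235 and 158 FPKM with IAA (log2 fold change 5.42, SE 0.19, limma adjusted p = 1.1e-09). AT1G22900, annotated as a dirigent-like protein, had 0.184, 0.324 and 0.397 FPKM on MS and 25.3, 17.5 and 23.0 FPKM with IAA (log2 fold change 4.8, SE 0.21, limma adjusted p = 8.4e-09). All were near or below 5 FPKM on MS and far above it in each treated library. AT4G37295 and its neighbour AT4G37290 had log2 fold changes of 4.93 and 4.39, and PIRL8, a leucine-rich repeat protein gene, had one of 4.17. In FPKM the largest gain was in AT5G64100, a class III peroxidase gene, with 477, 482 and 532 FPKM on MS and 1582, 1429 and 1155 FPKM with IAA (log2 fold change 1.47, SE 0.21, limma adjusted p = 0.0003). CDEF1, an esterase that acts on the cuticle, had 32.3, 26.3 and 32.2 FPKM on MS and 592, 940.2 and 824 FPKM with IAA (log2 fold change 4.65, SE 0.25, limma adjusted p = 4.1e-08) and overlaps AT4G30130. AIR12, a plasma membrane cytochrome b first found as auxin-induced in root cultures, had 27.8, 31.6 and 34.7 FPKM on MS and 553, 314 and 459 FPKM with IAA (log2 fold change 3.76, SE 0.18, limma adjusted p = 1.6e-08). In all, 22 genes went from below 1 FPKM in every MS library to at least 5 FPKM in every IAA library, and 6 went the other way.

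RBCS3B, for the small subunit of Rubisco, had the widest spread of the 12 largest increases. It had 0.488, 0 and 0.035 FPKM on MS and 99.5, 11.4 and 3.45 FPKM with IAA (log2 fold change 4.71, SE 1.13, limma adjusted p = 0.012), so that the 3 IAA libraries differ by more than an order of magnitude and IAA 1 is highest, in step with the other green-tissue genes. Without IAA 1 its log2 fold change was 3.42 (limma adjusted p = 0.027). Of the green-tissue markers, 3 of the 26 tested members rose and 0 fell (median log2 fold change 0.75, and 0 lower at an unadjusted limma p under 0.05), and LHCB1.1 and RBCS2B lost the call without IAA 1 and in 7 and 9 of the 18 alternatives in all. Without IAA 1, 1 rose and 1 fell, and the median log2 fold change was 0.16, against 1.21 without IAA 3. With IAA 3 left out, 6 rose, and leaving out IAA 2 or any MS library left 1. The RBCS genes are near-identical, and their reads may be shared.

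The 12 largest decreases included members of the lipid-transfer family, pectin lyase-like genes, a pectin methylesterase inhibitor, an aquaporin and an enzyme of wax synthesis. AT5G46900, annotated in the lipid-transfer protein family, had 151, 187 and 223 FPKM on MS and 4.33, 4.42 and 1.48 FPKM with IAA (log2 fold change −5.68, SE 0.36, limma adjusted p = 1.8e-07). Its neighbour AT5G46890, of the same family, had 247, 318 and 387 FPKM on MS and 7.56, 7.01 and 5.70 FPKM with IAA (log2 fold change −5.44, SE 0.19, limma adjusted p = 8.6e-10). AT4G25250, a pectin methylesterase inhibitor gene, had 48.0, 46.0 and 41.8 FPKM on MS and 1.18, 0.256 and 0.147 FPKM with IAA (log2 fold change −5.61, SE 0.31, limma adjusted p = 5.5e-08). These transcripts were well expressed in each MS library and were at a few FPKM or less in each IAA library. AT4G12510 and AT4G12520, a neighbouring pair of the same lipid-transfer family, had log2 fold changes of −4.42 and −3.72, and AT4G22666 one of −3.85. Members of each pair are near copies of one another, so each pair may be 1 signal. AT1G05650 and AT1G05660, annotated as pectin lyase-like, had log2 fold changes of −4.65 and −4.53. CER4, which makes primary alcohols for wax, had 13.5, 14.3 and 12.3 FPKM on MS and 0.471, 0.499 and 0.32 FPKM with IAA (log2 fold change −3.90, SE 0.30, limma adjusted p = 1.3e-06). ATCSLB05, a cellulose-synthase-like gene, had 13.0, 11.4 and 8.40 FPKM on MS and 0.566, 0.231 and 0.426 FPKM with IAA (log2 fold change −3.65, SE 0.22, limma adjusted p = 1.3e-07). AT3G59370, annotated as a vacuolar calcium-binding protein, had 65.1 ± 14.1 FPKM on MS and 3.32 ± 1.69 FPKM with IAA (log2 fold change −4.16, SE 0.25, limma adjusted p = 1.1e-07). AT3G01190, a class III peroxidase gene, fell from a high level, with 432, 419.7 and 434 FPKM on MS and 108, 94.2 and 93.3 FPKM with IAA (log2 fold change −2.12, SE 0.11, limma adjusted p = 3.3e-08). AT4G30170, another, had 589 ± 55.8 FPKM on MS and 274 ± 27.5 FPKM with IAA (log2 fold change −1.10, SE 0.12, limma adjusted p = 3.6e-05).

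More water channel genes fell than rose. Of the aquaporins, 3 of the 29 tested members rose and 14 fell (median log2 fold change −0.59). NIP1;1 (NLM1) had 121, 115 and 112 FPKM on MS and 6.27, 4.06 and 3.72 FPKM with IAA (log2 fold change −4.53, SE 0.18, limma adjusted p = 2.1e-09). PIP1;1 (PIP1A), one of the 6 genes with the largest loss in FPKM, had 753, 905 and 878 FPKM on MS and 387, 332 and 312 FPKM with IAA (log2 fold change −1.3, SE 0.14, limma adjusted p = 3.4e-05). PIP1;2 (PIP1B) had 846, 931 and 905 FPKM on MS and 525, 455 and 368 FPKM with IAA (log2 fold change −1.01, SE 0.14, limma adjusted p = 0.00028). PIP2;7 had 402 ± 7.91 FPKM on MS and 136 ± 28.3 FPKM with IAA (log2 fold change −1.58, SE 0.15, limma adjusted p = 9.4e-06). PIP2;6 rose, with 2.88, 3.27 and 2.25 FPKM on MS and 16.7, 11.5 and 9.02 FPKM with IAA (log2 fold change 1.94, SE 0.20, limma adjusted p = 1.7e-05). Neither group of libraries overlapped the other in any of these genes, but they were named for the strength of their change, so this is no test. Of the 29 tested aquaporins, 4 lay entirely higher and 15 entirely lower with IAA, against 15.5% and 14.2% of all genes. For the aquaporins, the median log2 fold change was −0.40 without IAA 3.

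In the wall, expansin and XTH genes moved in both directions, and more arabinogalactan protein and cellulose synthase genes fell than rose. Of the arabinogalactan proteins, cell-surface proteoglycans, 1 of the 38 tested members rose and 17 fell (median log2 fold change −0.51). AGP13 had 109.5, 143 and 147 FPKM on MS and 14.4, 10.1 and 6.99 FPKM with IAA (log2 fold change −3.65, SE 0.21, limma adjusted p = 7.2e-08). AGP22 had 143, 159.7 and 201 FPKM on MS and 16.5, 13.9 and 7.25 FPKM with IAA (log2 fold change −3.75, SE 0.25, limma adjusted p = 3.1e-07). AGP14 and FLA9 had log2 fold changes of −2.46 and −2.08. Of the expansins, which loosen walls, 9 of the 22 tested members rose and 5 fell (median log2 fold change 0.41). EXPA1 had 14, 15.4 and 20.2 FPKM on MS and 184, 136 and 157 FPKM with IAA (log2 fold change 3.24, SE 0.17, limma adjusted p = 4.7e-08). EXPB1 had 31.1, 33.7 and 36.0 FPKM on MS and 4.89, 2.83 and 2.84 FPKM with IAA (log2 fold change −3.12, SE 0.21, limma adjusted p = 4.1e-07). EXPA12 had a log2 fold change of 3.41 and EXLB1 one of 1.43. Of the XTH enzymes, which cut and rejoin xyloglucan, 4 of the 27 tested members rose and 7 fell (median log2 fold change −0.24), with XTH22 (TCH4) at 4.47, 3.76 and 2.3 FPKM on MS and 43.3, 37.9 and 32.2 FPKM with IAA (log2 fold change 3.29, SE 0.24, limma adjusted p = 6.2e-07), XTH4 at 1.11, XTH16 at −2.05 and XTH21 at −1.88. Of the cellulose synthases, 0 of the 13 tested members rose and 5 fell (median log2 fold change −0.44, and 0 higher at an unadjusted limma p under 0.05), the members named being CESA1, CESA2, CESA5 and CESA6 of the primary wall, between −0.74 and −0.53; CESA1 was not past the threshold without IAA 2 or MS 1, and CESA6 without IAA 2, MS 1 or MS 2. With a correction for transcript length none of the 13 was past the threshold (median log2 fold change −0.19), and in the fit of the 6 Col-0 libraries alone 2 fell. Of the extensins and proline-rich proteins, 1 of the 20 tested members rose and 4 fell (median log2 fold change −0.38), EXT4 being the one that rose (1.5). Of the pectin methylesterases and inhibitors, 2 of the 13 tested members rose and 2 fell (median log2 fold change 0.12), with PME41 at 2.06 and PME17 at −1.81. For the expansins, 3 fell without IAA 2, IAA 3, MS 1, MS 2 or MS 3. For the arabinogalactan proteins, 0 rose without IAA 1, MS 1 or MS 2 and 3 rose without IAA 2, the median log2 fold change was −0.34 without IAA 2 and −0.25 without MS 3, and 0 rose in the fit of the 6 Col-0 libraries alone. For the extensins, 7 fell without IAA 1, and the median log2 fold change was −0.23 without IAA 2. For the cellulose synthases, 2 fell without IAA 2 or MS 1, 3 fell without MS 2 and 9 fell without MS 3. For the pectin methylesterases, 1 fell without IAA 1, IAA 2 or MS 3 and 1 rose and 1 fell without MS 2.

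Markers of the epidermis were lower with IAA more often than higher. Of the root hair markers, 1 of the 10 tested members rose and 5 fell (median log2 fold change −0.61), and the list's median level was 16.4 to 19.6 FPKM in the MS libraries and 7.66 to 9.89 FPKM in the IAA libraries. Their sum was 245 to 296 FPKM in the MS libraries and 237, 183 and 184 FPKM in IAA 1, IAA 2 and IAA 3. COBL9, needed for hair tip growth, had 20.1, 20.2 and 18.5 FPKM on MS and 7.35, 3.25 and 5.10 FPKM with IAA (log2 fold change −1.87, SE 0.22, limma adjusted p = 6.1e-05), MRH6 a log2 fold change of −1.15 and PRP3 one of −0.97, while EXPA7, a hair-specific expansin gene, had 32.5, 45.1 and 44.2 FPKM on MS and 69.6, 57.3 and 57.2 FPKM with IAA (log2 fold change 0.60, SE 0.14, limma adjusted p = 0.0087), and in this list it is the member that rose. Of the non-hair markers, 0 of the 4 tested members rose and 4 fell (median log2 fold change −0.82, and 0 higher at an unadjusted limma p under 0.05), and they summed to 28.5 to 32.3 FPKM on MS and 11.9 to 18.5 FPKM with IAA. GL2, which keeps epidermal cells hairless, had 5.57, 5.53 and 5.25 FPKM on MS and 3.02, 2.32 and 3.58 FPKM with IAA (log2 fold change −0.79, SE 0.17, limma adjusted p = 0.0051). WER, which acts above it, had 12.9 ± 1.5 FPKM on MS and 5.88 ± 2.67 FPKM with IAA (log2 fold change −1.15, SE 0.24, limma adjusted p = 0.0049). The endodermis list had 2 of 7 members that fell, CASP5 (−0.90) and CASP4 (−0.53), and summed to 372 to 489 FPKM on MS and 369 to 431 FPKM with IAA. Of the xylem markers 0 of the 7 tested members rose and 0 fell (median log2 fold change −0.31, and 0 higher and 1 lower at an unadjusted limma p under 0.05), and of the pericycle markers 1 of the 5 tested members rose and 2 fell (median log2 fold change −0.03): the one that rose was LBD16, described above, and SKOR, a potassium channel that loads the xylem, had a log2 fold change of −1.41. No root marker listed here was at 0 in any Col-0 library except 1 of the 8 endodermis and 1 of the 3 root cap genes. The part of a shift in cell makeup in the changes of wall and epidermal genes was not tested. For the root hair markers, 0 rose in the fit of the 6 Col-0 libraries alone. For the xylem markers, 1 fell without IAA 1 or MS 3, and the median log2 fold change was −0.20 without MS 1. For the pericycle markers, 1 fell without MS 1.

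The precursor of ethylene is made by ACC synthases, of which 4 of the 9 tested members rose and 1 fell (median log2 fold change 0.74). ACS9 had 0.032, 0.032 and 0.0344 FPKM on MS and 9.45, 12 and 7.63 FPKM with IAA (log2 fold change 4.23, SE 0.18, limma adjusted p = 5.9e-09). ACS11 had 0.581 ± 0.267 FPKM on MS and 6.04 ± 1.13 FPKM with IAA (log2 fold change 2.61, SE 0.29, limma adjusted p = 3.2e-05) and ACS8 a log2 fold change of 1.65. ACS5 fell, with 2.25, 2.74 and 2.13 FPKM on MS and 0.327, 0.0495 and 0.214 FPKM with IAA (log2 fold change −2.06, SE 0.25, limma adjusted p = 7.9e-05). For the ACC synthases, the median log2 fold change was 0.42 without MS 3, and 0 fell with a filter of 5 FPKM. In the list of ethylene perception and signaling, 7 of the 17 tested members rose and 0 fell (median log2 fold change 0.37, and 0 lower at an unadjusted limma p under 0.05). Its members that rose include genes that dampen the response: ARGOS had 6.09 ± 0.291 FPKM on MS and 28.1 ± 2.41 FPKM with IAA (log2 fold change 2.11, SE 0.15, limma adjusted p = 7.4e-07), RTE1 had a log2 fold change of 1.19, and the receptor genes ERS2 and ERS1 had values of 0.97 and 0.62.

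Of the lists for other hormones, 46.2% of the brassinosteroid genes, 41.7% of the strigolactone and karrikin genes and 36.4% of the jasmonate genes passed the test. For the cytokinin enzymes it was 23.5%, for the gibberellin genes 10.5% and for the abscisic acid (ABA) genes 7.69%, against 17.3% of all genes. Of the ABA genes, 1 of the 13 tested members rose and 0 fell (0 lower at an unadjusted limma p under 0.05). For cytokinin synthesis and oxidation, 2 of the 17 tested members rose and 2 fell (median log2 fold change 0.37): CKX7, which degrades the hormone, had 0.527 ± 0.15 FPKM on MS and 3.39 ± 0.269 FPKM with IAA (log2 fold change 1.93, SE 0.19, limma adjusted p = 1.3e-05), LOG7, which activates it, had a log2 fold change of 1.74, and the synthesis genes IPT3 and CYP735A2 had values of −0.98 and −0.91. Of the type-A response regulators, 2 of the 8 tested members rose and 1 fell (median log2 fold change 0.09), ARR4 having a log2 fold change of 1.05, ARR5 one of 0.74 and ARR3 one of −1.61. For gibberellin, 2 of the 19 tested members rose and 0 fell (median log2 fold change 0.11, and 3 lower at an unadjusted limma p under 0.05), and both were enzymes that inactivate the hormone: GA2OX8 had 0.339, 0.711 and 0.465 FPKM on MS and 9.67, 14.5 and 11.4 FPKM with IAA (log2 fold change 3.62, SE 0.25, limma adjusted p = 4.5e-07). GA2OX6 had 14.3 ± 1.36 FPKM on MS and 32.9 ± 3.77 FPKM with IAA (log2 fold change 1.17, SE 0.12, limma adjusted p = 1.9e-05). For brassinosteroids, 4 of the 13 tested members rose and 2 fell (median log2 fold change −0.25). DWF4, for an early and limiting step of synthesis, had 14 ± 0.91 FPKM on MS and 42.0 ± 10.9 FPKM with IAA (log2 fold change 1.52, SE 0.19, limma adjusted p = 7.5e-05), SOB7, an inactivating enzyme, had 3.47 ± 1.36 FPKM on MS and 16.2 ± 3.55 FPKM with IAA, BEN1, another, had a log2 fold change of 1.53, and BR6OX1, for a late step, one of −1.71. For strigolactone and karrikin, 5 of the 12 tested members rose and 0 fell (median log2 fold change 0.09, and 0 lower at an unadjusted limma p under 0.05), and MAX4 (CCD8), a strigolactone synthesis gene, had 0.397 ± 0.17 FPKM on MS and 3.68 ± 0.71 FPKM with IAA (log2 fold change 2.22, SE 0.25, limma adjusted p = 3.5e-05). For jasmonate, 4 of the 22 tested members rose and 4 fell (median log2 fold change −0.14), and VSP2, a jasmonate-induced storage protein gene, had 3.25 ± 1.23 FPKM on MS and 0.229 ± 0.0976 FPKM with IAA (log2 fold change −2.32, SE 0.28, limma adjusted p = 7.1e-05). For the cytokinin enzymes, 7 rose without IAA 1 and 4 fell without IAA 3, and the median log2 fold change was 0.24 without IAA 3. For the type-A regulators, 2 fell without IAA 2 or IAA 3. For the gibberellin genes, 1 fell without IAA 1 and 4 rose and 1 fell without IAA 3. For the brassinosteroid enzymes, 4 fell without IAA 1. For the jasmonate genes, 2 rose without MS 3. For the strigolactone and karrikin genes, 3 rose without MS 1 or MS 3.

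**Figure D4:**
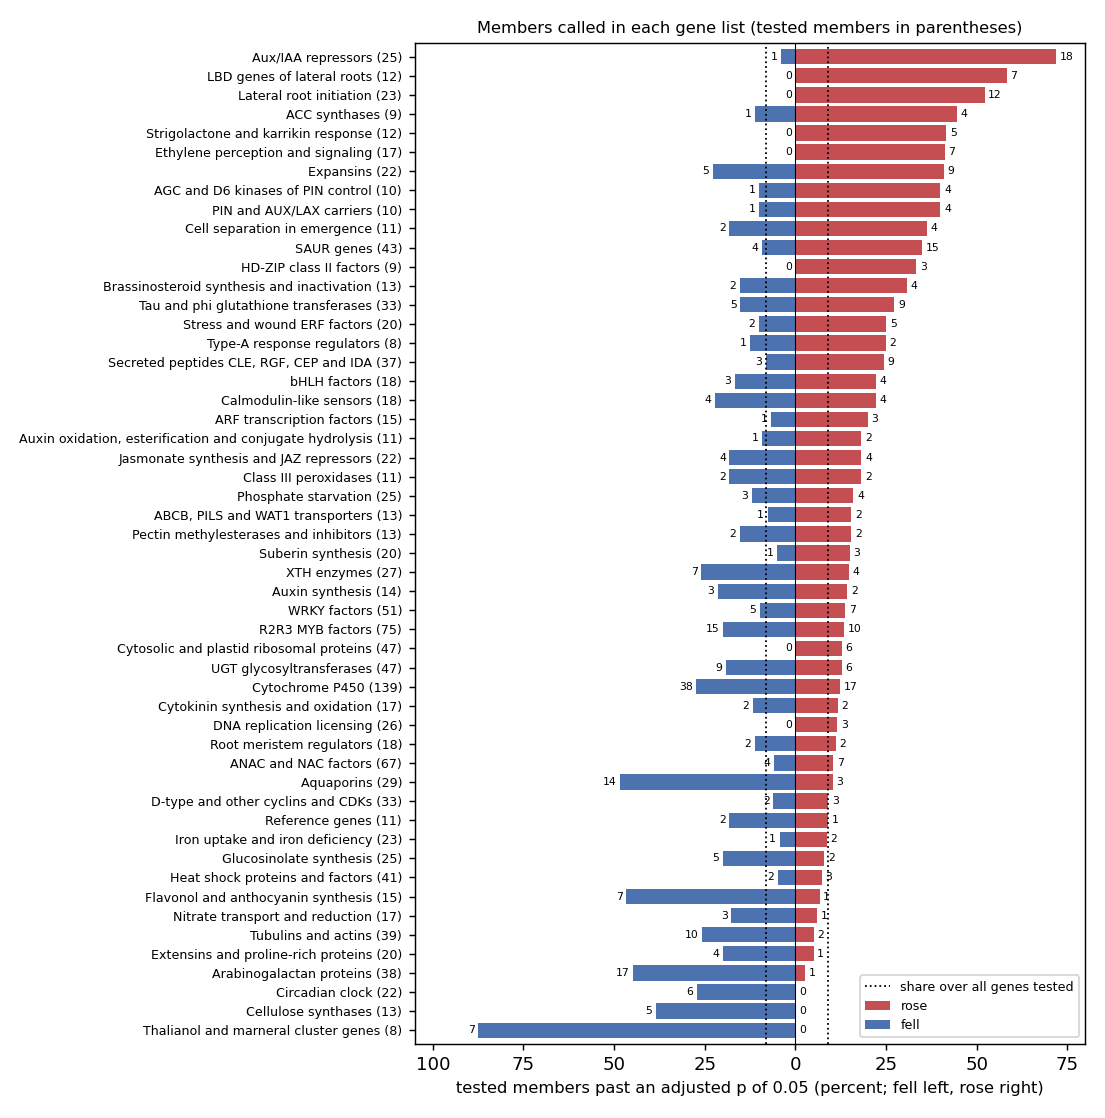
Share of tested members that rose (right) or fell (left) with IAA in Col-0 for each gene list with at least 8 tested members and at least 3 called, with the counts printed at the bars; dotted lines are the shares over all 18743 genes, 9.09% and 8.21%. Aux/IAA genes reach 18 of 25 on the right, and aquaporins (14 of 29) and arabinogalactan proteins (17 of 38) lie on the left.

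In the triterpene, cytochrome P450, flavonoid and glucosinolate lists more genes fell than rose, and in the glutathione transferase list more rose. The lists are not independent, since several genes of the other lists named below are themselves cytochromes P450. Of the thalianol and marneral genes, which make root triterpenes from 2 gene clusters, 0 of the 8 tested members rose and 7 fell (median log2 fold change −1.96, and 0 higher at an unadjusted limma p under 0.05). MRN1 (marneral synthase) had 3.5, 17.8 and 9.80 FPKM on MS and 0.383, 1.06 and 0.569 FPKM with IAA (log2 fold change −3.00, SE 0.43, limma adjusted p = 0.00032). THAS1 (thalianol synthase) had 78.8, 140.1 and 78.8 FPKM on MS and 13.3, 11.4 and 11.4 FPKM with IAA (log2 fold change −2.94, SE 0.53, limma adjusted p = 0.0018), and THAH and THAD, which modify thalianol, had log2 fold changes of −2.39 and −2.6. MS 2 was the highest MS library for these 4 genes, and the groups did not overlap in them. They were named for the strength of their change, so their lack of overlap is no test. Of the 8 tested members, 7 lay entirely lower with IAA, against 14.2% of all genes. Of the cytochromes P450, 17 of the 139 tested members rose and 38 fell (median log2 fold change −0.17), with CYP78A8 at −2.28 and CYP78A10 at 2.6. Of the flavonoid genes, 1 of the 15 tested members rose and 7 fell (median log2 fold change −0.45), TT7 (CYP75B1) having 7.28 ± 0.888 FPKM on MS and 2.35 ± 0.252 FPKM with IAA (log2 fold change −1.45, SE 0.18, limma adjusted p = 7.1e-05). Of the glucosinolate genes, 2 of the 25 tested members rose and 5 fell (median log2 fold change −0.14), IGMT1 having a log2 fold change of −1.42 and CYP81F3 one of −1.31. Of the tau and phi glutathione transferases, 9 of the 33 tested members rose and 5 fell (median log2 fold change 0.22), with GSTU14 at −2.80 and GSTU9 at 1.3. The tested members ranged from −2.80 to 1.85. For the triterpene genes, 4 fell without MS 2. For the cytochromes P450, 11 rose without MS 1 or MS 2. For the flavonoid genes, 0 rose without IAA 2 or MS 3 and 0 rose and 3 fell without MS 1 or MS 2, and 0 rose with the length correction, without the variance trend, with median centring, with median-of-ratios scaling, in the fit of the 6 Col-0 libraries alone and with quantile normalization. For the glucosinolate genes, 1 rose and 3 fell without IAA 2, MS 1, MS 2 or MS 3 and 1 rose without IAA 3.

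Among nutrient genes, nitrate transporter NRT1.5 had 432 ± 58.6 FPKM on MS and 170.3 ± 20.1 FPKM with IAA (log2 fold change −1.34, SE 0.12, limma adjusted p = 6.6e-06), and of that list 1 of the 17 tested members rose and 3 fell (median log2 fold change −0.13). Of the phosphate list 28.0% and of the iron list 13.0% passed the test. Of the phosphate genes, 4 of the 25 tested members rose and 3 fell (median log2 fold change −0.05), with the transporter PHT1;1 at 1.00, and of the iron genes, 2 of the 23 tested members rose and 1 fell (median log2 fold change −0.12), with F6'H1, for coumarin synthesis, at 1.46 and NAS1, for nicotianamine synthesis, at −1.15. For the nitrate genes, 2 rose and 5 fell without IAA 1, 0 rose and 1 fell without IAA 2, 0 rose without MS 1 and 1 fell without MS 2, and 0 rose in the fit of the 6 Col-0 libraries alone. For the iron genes, 4 fell without IAA 1, 1 rose without IAA 2 or MS 2, 4 rose without IAA 3, 1 rose and 2 fell without MS 1 and 2 fell without MS 3. For the phosphate genes, 2 rose and 0 fell without MS 1 and 1 fell without MS 2, and 0 fell in the fit of the 6 Col-0 libraries alone.

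In the lists of the cell cycle and of ribosomes at most 15.2% of the genes passed the test at 3 h, and in that of tubulins and actins 30.8%, against 17.3% of all genes. Of the cyclins and CDKs, 3 of the 33 tested members rose and 2 fell (median log2 fold change 0.03): CYCD3;1, which drives the entry into division, had 14.1 ± 1.13 FPKM on MS and 28.1 ± 2.99 FPKM with IAA (log2 fold change 0.97, SE 0.11, limma adjusted p = 5.5e-05) and CYCD1;1 had a log2 fold change of 0.69. Of the replication genes, 3 of the 26 tested members rose and 0 fell (median log2 fold change −0.03, and 2 lower at an unadjusted limma p under 0.05), TSO2, for a ribonucleotide reductase subunit, having a log2 fold change of 0.72. Of the CDK inhibitors, 1 of the 10 tested members rose and 0 fell (median log2 fold change 0.31, and 1 lower at an unadjusted limma p under 0.05), KRP5 having a log2 fold change of 1.04. Of the ribosomal proteins, 6 of the 47 tested members rose and 0 fell (median log2 fold change 0.26, and 17 higher and 0 lower at an unadjusted limma p under 0.05). The share that rose was 12.8%, against 9.09% of all genes, and only 47 of the 83 genes of this list are in the table. Of the tubulins, actins and their partners, 2 of the 39 tested members rose and 10 fell (median log2 fold change −0.15), and ACT11 had 40.7 ± 1.62 FPKM on MS and 9.65 ± 1.92 FPKM with IAA (log2 fold change −2.04, SE 0.15, limma adjusted p = 6.9e-07) and TUB1 a log2 fold change of −1.62. Common reference genes were not all constant: 1 of the 11 tested members rose and 2 fell (median log2 fold change 0.05), ACT2 at −0.59 and TUA3 at −0.59, while UBQ10 (0.44, limma adjusted p = 0.026) lost its call in 8 of the 18 alternatives, those without IAA 1, IAA 2 or any 1 MS library among them. Of the SUMO genes, 2 of the 14 tested members rose and 0 fell (median log2 fold change 0.03, and 0 lower at an unadjusted limma p under 0.05), SUM2 having a log2 fold change of 0.61. For the cyclins and CDKs, 5 rose and 0 fell without IAA 1, 1 fell without IAA 3 or MS 3 and 0 fell without MS 1 or MS 2, and 0 fell in the fit of the 6 Col-0 libraries alone and with the replicate block. For the replication genes, 5 rose without IAA 1, 1 rose and 1 fell without IAA 2, 2 fell without IAA 3 and 1 rose without MS 2. For the CDK inhibitors, 2 rose without IAA 1, and the median log2 fold change was 0.16 without MS 1 and 0.49 without MS 3. For the ribosomal proteins, 3 rose without IAA 2, 13 rose without IAA 3, 2 rose without MS 2 and 10 rose without MS 3. For the tubulins and actins, 1 rose without IAA 2, MS 1 or MS 2, and 0 rose with a filter of 5 FPKM. For the reference genes, 0 rose without IAA 1, IAA 2, MS 1, MS 2 or MS 3, and 0 rose with median centring, with median-of-ratios scaling and in the fit of the 6 Col-0 libraries alone. For the SUMO genes, 1 rose without IAA 2, IAA 3, MS 1 or MS 2.

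The MYB, NAC and WRKY transcription factor families were split between genes that rose and fell. The test was passed by 33.3% of the MYB, 23.5% of the WRKY and 16.4% of the NAC genes, against 17.3% of all genes. The NAC share is thus near that of all genes. Of the MYB genes, 10 of the 75 tested members rose and 15 fell (median log2 fold change −0.13), of the NAC genes 7 of the 67 tested members rose and 4 fell (median log2 fold change 0.03) and of the WRKY genes 7 of the 51 tested members rose and 5 fell (median log2 fold change −0.12). WRKY23, which acts in root development downstream of auxin, had 3.63 ± 0.423 FPKM on MS and 11.1 ± 2.14 FPKM with IAA (log2 fold change 1.48, SE 0.18, limma adjusted p = 5.7e-05). ANAC018 had 2.6 ± 0.24 FPKM on MS and 15.6 ± 1.48 FPKM with IAA (log2 fold change 2.38, SE 0.16, limma adjusted p = 3.2e-07). NAC2 (AT3G15510) had a log2 fold change of 2.05, MYB6 one of 1.69 and MYB86 one of −1.97. Of the stress and wound ERF genes, 5 of the 20 tested members rose and 2 fell (median log2 fold change 0.40): ERF11 had 3.47 ± 1.37 FPKM on MS and 22.2 ± 7.75 FPKM with IAA (log2 fold change 2.52, SE 0.33, limma adjusted p = 0.00014), and ERF13 had 0.247, 1.24 and 0.0887 FPKM on MS and 2.94, 0.584 and 1.00 FPKM with IAA (log2 fold change 0.96, SE 0.45, limma adjusted p = 0.16). MPK3 and MPK6, kinases of stress signaling, had log2 fold changes of −0.06 and 0.06 (limma adjusted p = 0.82 and 0.78). The calmodulin-like gene CML12 (TCH3) had 1.37, 1.5 and 1.78 FPKM on MS and 21.3, 27.3 and 21.0 FPKM with IAA (log2 fold change 3.53, SE 0.32, limma adjusted p = 5e-06), and with CML24 (TCH2, 0.97) and XTH22 (TCH4) it belongs to the genes first known as induced by touch. Of the calmodulin-like sensors, 4 of the 18 tested members rose and 4 fell (median log2 fold change 0.02). Of the clock genes, 0 of the 22 tested members rose and 6 fell (median log2 fold change −0.51, and 0 higher at an unadjusted limma p under 0.05), with RVE8, whose call was lost without MS 2, at −0.74 and CHE at −0.97. For the MYB genes, 16 rose and 9 fell without IAA 1, 5 rose without IAA 2, 5 rose and 8 fell without MS 1 and 8 fell without MS 2 or MS 3. For the NAC genes, 11 rose without IAA 1, 4 rose without IAA 3 or MS 3 and 3 rose without MS 2. For the WRKY genes, 11 rose without IAA 1, 4 rose without IAA 2 or MS 2, 12 fell without IAA 3 and 2 fell without MS 1. For the calcium sensors, 2 fell without IAA 2, MS 2 or MS 3. For the ERF genes, the median log2 fold change was 0.26 without IAA 1. For the clock genes, 3 fell without IAA 1 and 2 fell without MS 1, MS 2 or MS 3, the median log2 fold change was −0.20 without IAA 1, and 0 fell in the fit of the 6 Col-0 libraries alone.

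The promoters of the DEGs were searched for auxin response hexamers on both strands, from 250 bases before to 50 bases after the annotated start. TGTCTC stood in 107 of the 625 DEGs that rose (17.1%, 95% Wilson interval 14.4 to 20.3%), in 82 of the 586 that fell (14%, 11.4 to 17.0%) and in 2541 of all 18742 genes with a promoter (13.6%). TGTCGG, the form that ARFs bind most tightly in vitro, stood in 6.24% of those that rose, 4.61% of those that fell and 5.70% of all. TGTCNN, which contains both, stood in 83.0%, 84.3% and 81.3%, and either hexamer in 22.7%, 18.6% and 18.5%. Among the 12 largest increases, GH3.3, GH3.2, GH3.5 and GASA5 held TGTCTC, in GASA5 after the start, and among the 12 largest decreases AGP22 did. Of the 100 largest increases, 24 held TGTCTC. A match is a description of these letters and not a binding site.

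Some of the DEGs lay beside one another. With genes ordered as in RefSeq, 108 of the 625 DEGs that rose (17.3%) had a neighbour that was also a DEG that rose, whereas 970 of the 18743 genes tested (5.18%) had such a neighbour. For the DEGs that fell it was 93 of 586 (15.9%), against 903 (4.82%). Runs of 3 include the thalianol genes CYP705A5 (THAD), CYP708A2 (THAH) and THAS1, the marneral genes CYP705A12, CYP71A16 and MRN1, and, upward, EARLI1 with AT4G12490 and AT4G12500. Neighbours can be copies of one gene, whose reads may be shared.

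The IAA response differed between the genotypes in 3 genes (limma interaction, adjusted p under 0.05), 0.016% of those tested: GH3.3, AT2G36210, annotated as a SAUR-like gene, and AT5G14690. Over the Col-0 DEGs, the median log2 fold change in *siz1-2* was 1.27 for the 625 and −1.13 for the 586. Since these genes were chosen on the Col-0 contrast, a smaller median in the other genotype is set in part by that choice and is no test.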

How the data were processed

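The authors deposited 1 table of FPKM per gene for 12 root libraries, computed on a sequencing company's platform. The sources used here do not give the aligner, build, annotation or strand handling, and no counts were used. Genes had to reach 1 FPKM in 3 or more libraries (18743 did), and their log2(FPKM + 0.5) was fitted with limma 3.58.1 (R 4.3.3; 4 group means over all 12 libraries, eBayes with a trend), two-sided, with Benjamini-Hochberg adjustment within each contrast. Called genes had an adjusted p under 0.05, and DEGs also a log2 fold change of 1 or more in size. Tables and figures were made with Python 3.11.15, numpy 2.4.6, pandas 2.3.3, scipy 1.17.1 and matplotlib 3.10.9. With 3 libraries against 3, an exact permutation test cannot go below p = 0.1, so none is given.

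The members, the 62 gene lists and 9 marker lists (1403 genes tested; 72 names unmatched and 24 ambiguous) were chosen with earlier results of these data known. Genes were named by rule: the 12 largest log2 increases and decreases among non-overlapping DEGs whose higher group averaged 5 FPKM or more, the 6 largest FPKM differences each way, up to 8 genes that crossed from below 1 FPKM in all libraries of one group to at least 5 FPKM in all of the other, the 4 strongest members of each list, and auxin genes of the paper. TMK4 had no matching name and is not reported. All 23853 genes matched RefSeq TAIR10.1, whose names, order, lengths and 250 upstream bases were used. Near-identical and overlapping genes were counted in a way not stated, so their values are uncertain. Alternatives were other pseudocounts, filters, scalings and variance models, a length correction, a replicate block, fits of the 6 Col-0 libraries alone, stricter thresholds, other motifs, and each Col-0 library left out.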

Additional observations from a re-analysis of the deposited data

Results flagged for a closer look

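In 3 genes the IAA response of *siz1-2* differed from that of Col-0 by limma's interaction test (adjusted p under 0.05), out of 18743 tested, and 2124 genes had an unadjusted interaction p under 0.05.

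GH3.3 had 1.21, 1.06 and 0.932 FPKM in the Col-0 MS libraries and 10.6, 14.6 and 16.2 FPKM in the *siz1-2* MS libraries, while with IAA it had 763, 639.6 and 728 FPKM in Col-0 and 712, 766 and 819.7 FPKM in *siz1-2*. IAA raised it by 8.82 on the log2 scale in Col-0 and by 5.76 in *siz1-2*, a difference of −3.06 (SE 0.20, limma adjusted p = 2.3e-05). The 2 genotypes overlapped with IAA and did not overlap on MS.

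AT5G14690 had 15.3, 16.8 and 18.9 FPKM on MS and 78.0, 76.8 and 69.6 FPKM with IAA in Col-0, and 13.1, 13.4 and 14.3 FPKM on MS and 22.7, 24.8 and 24.2 FPKM with IAA in *siz1-2*. The difference of the log2 responses was −1.32 (SE 0.15, limma adjusted p = 0.0095), and the genotypes did not overlap on MS or with IAA.

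AT2G36210, a SAUR-like gene, had 5.02, 5.48 and 5.71 FPKM on MS and 24.9, 18.6 and 20.2 FPKM with IAA in Col-0, and 13.4, 15.4 and 11.3 FPKM on MS and 17.1, 18.2 and 14.5 FPKM with IAA in *siz1-2*. The difference of the log2 responses was −1.57 (SE 0.22, limma adjusted p = 0.037). Groups of 3 libraries are too small for a test of single outlying values.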

How the results depend on the processing

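The counts of genes past the threshold moved more with the fit than the counts of DEGs. With only the 6 Col-0 libraries, 1016 genes rose and 851 fell, against 1703 and 1538. At an adjusted p under 0.01, 943 rose and 775 fell, and list members called numbered 289. With a log2 fold change of 1.5 or more in size, 307 DEGs rose and 230 fell, against 625 and 586. Leaving out each Col-0 library in turn gave 586 to 675 and 527 to 763 DEGs, 1123 (without MS replicate 2) to 2359 genes that rose, 939 (without MS replicate 2) to 2225 (without IAA replicate 3) that fell, 338 to 492 called list members, and 1 (without MS replicate 2) to 3 genes whose response differed between genotypes, which were 5 without the variance trend. The share of rising among called genes was 52.5%, 60.1% without IAA replicate 1 and 44.3% without IAA replicate 3. The replicate block gave 623 and 580 DEGs and 1562 and 1408 genes that rose and fell. Same-numbered Col-0 libraries had correlations of deviations of −0.14, −0.10 and −0.01. Deviations from a group mean cancel within the group, so these few values cannot tell whether such libraries shared a batch. TGTCTC alone was in 17.12%, TGTCGG alone in 6.24% and TGTCNN in 83.04% of the promoters of the DEGs that rose, against 22.7% for either hexamer. Of 259 named genes past the threshold, 201 lost it under no alternative and 58 under at least 1. No reversed direction was found in 4780 fits of named genes. A sign change was not counted where the gene missed the threshold in both fits compared. FPKM without counts limit what low values can show.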

Other observations

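A run of annotated relatives of the lipid-transfer family on the chromosome, from EARLI1 to AT4G12520, held genes that rose beside genes that fell: of its 4 neighbouring pairs of DEGs, 2 were both higher, 1 was both lower and 1, AT4G12500 with AT4G12510, went in opposite directions. These genes were picked after their values were seen. EARLI1 had 88.4, 41.3 and 51.2 FPKM on MS and 205, 222 and 134 FPKM with IAA (log2 fold change 1.67, SE 0.29, limma adjusted p = 0.0015), and AZI1 had 213, 189 and 241 FPKM on MS and 509, 394 and 376 FPKM with IAA (0.98). AT4G12500 went from 0.569, 0.190 and 1.43 FPKM to 8.74, 4.81 and 6.06 FPKM, whereas the next genes AT4G12510 and AT4G12520 had log2 fold changes of −4.42 and −3.72.

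Of the 625 DEGs that rose, 283 were lowest in IAA replicate 1 among the 3 IAA libraries and 221 were highest in it, against 134 and 258 in IAA replicate 2 and 208 and 146 in IAA replicate 3. These are counts with no test.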
